A study of Mus musculus with 12 samples.

Results

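The resident Kupffer cell identity genes are 10 genes, namely Clec4f, Timd4, Vsig4, Cd5l, Adgre1, Marco, Cd163, Csf1r, Id3 and Folr2, out of 47729 genes counted in mouse liver by RNA-seq. They were taken as a fixed list of symbols and matched to the gene identifiers of the count files through the GENCODE M21 annotation. All 10 passed the filter on low counts, as did 16823 genes in all, and the least and most counted member had 138 and 9036 counts in a mouse. The livers came from 12 male C57BL/6 mice, 4 per group. Healthy mice (Naive_vehicle) were wild type, received no streptozotocin and ate a normal diet. Vehicle mice (STAM_vehicle) and I-BET151 mice (STAM_treated) were both made diabetic by streptozotocin on day 2 after birth and fed a high-fat diet from week 4, which produces fatty liver and then steatohepatitis. I-BET151, an inhibitor of the bromodomains of the BET proteins, was dosed by mouth every day, at 10 mg/kg, from week 6 to week 9, when livers were collected. The vehicle was methylcellulose, whereas I-BET151 was suspended in a different cellulose with Tween 80, and no mice with streptozotocin or diet alone were included.

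Kupffer cells are the macrophages that line the liver sinusoids. They are seeded before birth and renew themselves in place, and they take up bacteria, debris, dying cells and old red cells from portal blood. Signals from neighbouring endothelial, stellate and parenchymal cells, among them CSF1, Notch ligands and BMPs, maintain their identity. In steatohepatitis the resident cells can be lost and replaced by cells that derive from blood monocytes, which acquire Clec4f early and Timd4 late. All values below are from whole liver, in which fewer cells of a type and less RNA per cell cannot be told apart.

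The start regions of the members are shown because most of the members moved together from mouse to mouse, as described below. RefSeq promoters on GRCm38.p6 were matched for 8 members, and Adgre1 and Csf1r were without an entry. The 150 bases before each start were searched on both strands for GGAAGT, a core bound by ETS factors such as PU.1, the master regulator of macrophages. It was present for 4 of these 8 members, which had 9 windows, and in 13.6% of the 32851 promoter windows of the same length. The first count is per gene and the share per window, so no enrichment is read from them. The sequences are given 5′ to 3′ on the strand of the gene, with matches in capitals. Folr2 had 2 matches in the window shown and none in its other window, and Timd4 and Vsig4 had 1 each. Marco, which had the widest difference between the groups, had none, as did Cd5l, Cd163 and Id3.
Folr2 (chr7:101857191-101857340, minus strand): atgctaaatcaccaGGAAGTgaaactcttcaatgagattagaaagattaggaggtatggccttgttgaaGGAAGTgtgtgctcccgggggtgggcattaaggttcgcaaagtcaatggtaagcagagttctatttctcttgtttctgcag
Timd4 (chr11:46810649-46810798, plus strand): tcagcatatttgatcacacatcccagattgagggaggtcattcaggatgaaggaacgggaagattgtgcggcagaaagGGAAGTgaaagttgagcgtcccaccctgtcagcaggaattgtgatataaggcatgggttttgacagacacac
Vsig4 (chrX:96293439-96293588, minus strand): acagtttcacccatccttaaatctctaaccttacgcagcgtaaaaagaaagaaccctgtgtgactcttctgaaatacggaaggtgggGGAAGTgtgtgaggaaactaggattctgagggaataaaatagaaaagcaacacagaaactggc
Marco (chr1:120505025-120505174, minus strand): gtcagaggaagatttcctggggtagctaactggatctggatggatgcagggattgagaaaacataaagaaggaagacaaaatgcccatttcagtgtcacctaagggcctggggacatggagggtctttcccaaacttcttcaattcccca
The match of Clec4f lay from 33 to 28 bases before its RefSeq start, in the part of its window that GENCODE places inside the gene. GENCODE also places the whole Id3 window and the other Folr2 window inside their genes. The presence or absence of these letters is a description and not evidence of binding.

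Depth was 34711229 to 53365596 counts. The library of I-BET151 mouse 3 stood apart. TMM gave it a factor of 1.609, with 0.77 to 1.108 for the other 11 mice, and its 10 most abundant genes took 7.95% of counts against 13.5% to 18%. Its summed CPM over 6 hepatocyte markers was 21426, against 105762 to 124359 in the healthy mice and 54735 to 73745 in the vehicle mice. Of the members, 8 were lower in it than in the other I-BET151 mice, Id3 was higher and Clec4f lay within their range, while 39.3% of all tested genes were lower and 42.3% higher. Its part in the results was not tested, and the members' results are given with and without it.

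**Figure D1:**
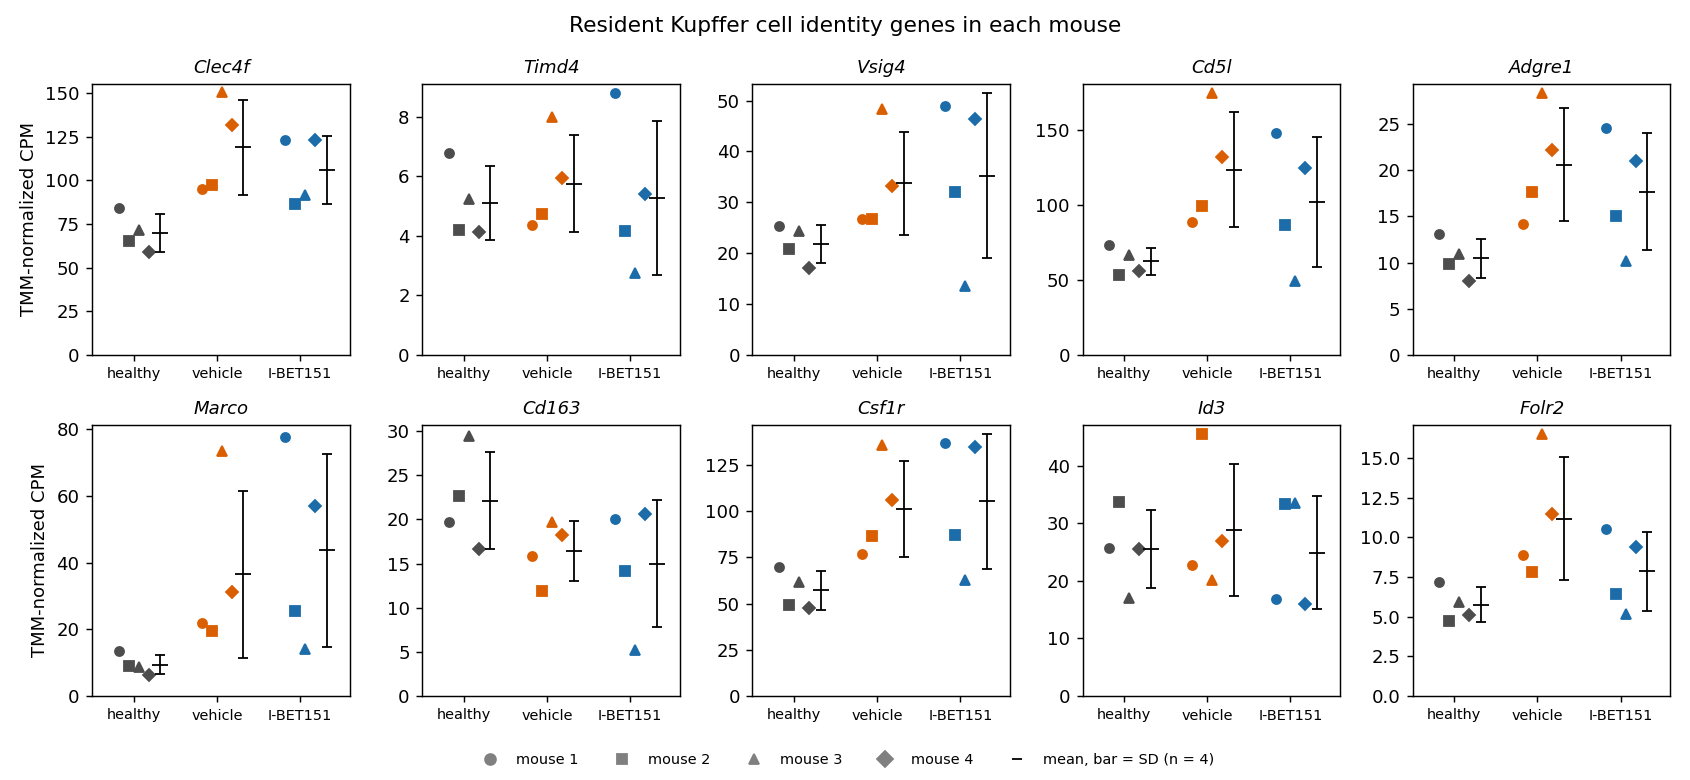
TMM-normalized values (CPM) of each identity gene in the 12 mice, by group, with the mean and SD of 4 mice beside the points. Marco spans 6.38 to 13.5 in healthy livers, 19.5 to 73.4 with vehicle and 14.2 to 77.8 with I-BET151, and I-BET151 mouse 3 (triangle) is the lowest of its group for 8 genes.

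Values are given in CPM, counts scaled to a common library size with edgeR's TMM factors. In vehicle against healthy livers, which asks how the genes stand once steatohepatitis is established, 4 members rose: Clec4f, Adgre1, Marco and Folr2. No member fell. At an adjusted p of at most 0.05, 7.10% of all tested genes differed and 5.72% were higher. Every vehicle mouse was above every healthy mouse for 7 members, the 4 above and Vsig4, Cd5l and Csf1r, a pattern that 14.2% of the tested genes showed. The median log2 fold change was 0.80 over the members and 0.0089 over all tested genes. The summed CPM of the hepatocyte markers was lower in every vehicle than in every healthy mouse, with a median log2 fold change of -0.49 over these 6 genes, and its part in the members' values was not tested.

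Clec4f (ENSMUSG00000014542, chromosome 6 of GRCm38 from 83644542 to 83656187) encodes a C-type lectin that in mice is made by Kupffer cells. Its CPM was 84.4, 65.3, 71.7 and 58.8 in the healthy mice, 95.3, 97.6, 151 and 132 in the vehicle mice and 123, 86.4, 91.8 and 123 in the I-BET151 mice. Both STAM groups lay above all healthy mice and overlapped each other. It rose by a log2 fold change of 0.76 (standard error 0.19, adjusted p = 0.0268) from healthy to vehicle.

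Marco (ENSMUSG00000026390, chromosome 1 from 120474538 to 120505024) encodes a scavenger receptor that binds bacteria and particles. It had 13.5, 9.03, 8.75 and 6.38 CPM in healthy, 21.8, 19.5, 73.4 and 31.3 in vehicle and 77.8, 25.6, 14.2 and 57.1 in I-BET151 mice. Vehicle mouse 3 was far above the rest of its group, and the lowest vehicle mouse was still above the highest healthy mouse. The log2 fold change in vehicle was 1.95 (standard error 0.52, adjusted p = 0.0374), the highest of the 10 members in that comparison.

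Cd163 (ENSMUSG00000008845, chromosome 6 from 124304656 to 124330527), the receptor for haemoglobin bound to haptoglobin, did not share that direction. It was at 19.7, 22.6, 29.5 and 16.7 CPM in healthy, 15.9, 11.9, 19.7 and 18.2 in vehicle and 20.1, 14.1, 5.2 and 20.6 in I-BET151 mice. The groups overlapped, with I-BET151 mouse 3 below all others. The log2 difference of vehicle from healthy was -0.43 (standard error 0.33, adjusted p = 0.48).

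Timd4 (ENSMUSG00000055546, chromosome 11 from 46810800 to 46844332) encodes a receptor for phosphatidylserine on dying cells and marks Kupffer cells of embryonic origin. Its CPM was 6.79, 4.19, 5.23 and 4.14 in healthy, 4.35, 4.72, 7.99 and 5.94 in vehicle and 8.81, 4.16, 2.74 and 5.4 in I-BET151 mice. All groups overlapped. The log2 difference in vehicle was 0.18 with a 95% confidence interval from -0.50 to 0.85 (adjusted p = 0.788), so neither a fall nor a rise within that interval was resolved.

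Vsig4 (ENSMUSG00000044206, chromosome X from 96247203 to 96293438) is the complement receptor CRIg, which catches C3b-coated bacteria. It had 25.3, 20.7, 24.3 and 17 CPM in healthy, 26.7, 26.6, 48.3 and 33.2 in vehicle and 48.9, 32.1, 13.5 and 46.3 in I-BET151 mice. Vehicle and healthy mice were separate by a narrow margin, and the log2 difference was 0.63 (standard error 0.32, adjusted p = 0.273).

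Cd5l (ENSMUSG00000015854, chromosome 3 from 87357881 to 87371073), a secreted protein that keeps macrophages alive, was at 73.2, 53.5, 66.6 and 56.2 CPM in healthy, 88.7, 99.6, 175 and 132 in vehicle and 148, 86.4, 49.4 and 125 in I-BET151 mice. Only I-BET151 mouse 3 of the 8 STAM mice lay below the highest healthy mouse. The log2 difference of vehicle from healthy was 0.99 (standard error 0.30, adjusted p = 0.0606), which did not pass the threshold.

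Adgre1 (ENSMUSG00000004730, chromosome 17 from 57358691 to 57483527) encodes F4/80, the classical surface marker of mouse macrophages. The healthy mice had 13.1, 9.88, 10.9 and 7.94 CPM, the vehicle mice 14.2, 17.7, 28.4 and 22.2, and the I-BET151 mice 24.6, 15, 10.2 and 21. It rose in vehicle by a log2 fold change of 0.98 (standard error 0.27, adjusted p = 0.0446), without overlap with healthy.

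Folr2 (ENSMUSG00000032725, chromosome 7 from 101839988 to 101857194) encodes the macrophage folate receptor and overlaps an antisense gene model and a pseudogene. How the counting used strand is not given in the sources used here, so reads of these models could be mixed. Its CPM was 7.21, 4.72, 5.93 and 5.12 in healthy, 8.89, 7.81, 16.5 and 11.5 in vehicle and 10.5, 6.42, 5.16 and 9.37 in I-BET151 mice. It rose in vehicle by a log2 fold change of 0.96 (standard error 0.27, adjusted p = 0.0445), and every vehicle mouse exceeded the healthy mice.

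Csf1r (ENSMUSG00000024621, chromosome 18 from 61100598 to 61132149) encodes the receptor for CSF1 and IL-34, on which Kupffer cells depend for survival, and overlaps a microRNA gene and a gene on the opposite strand. Its CPM was 69.9, 49.5, 61.9 and 47.4 in healthy, 76.6, 86.8, 136 and 106 in vehicle and 137, 86.9, 63 and 135 in I-BET151 mice. The vehicle mice were all above the healthy mice. The log2 difference was 0.83 (standard error 0.25, adjusted p = 0.0642), which missed the threshold.

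Id3 (ENSMUSG00000007872, chromosome 4 from 136143497 to 136145755) encodes an inhibitor of helix-loop-helix factors that Kupffer cells need, and is also made by other liver cells. It was at 25.7, 33.7, 17.1 and 25.5 CPM in healthy, 22.7, 45.6, 20.2 and 26.9 in vehicle and 16.8, 33.3, 33.6 and 16 in I-BET151 mice. The groups overlapped throughout, and the log2 difference of vehicle from healthy was 0.18 (standard error 0.31, adjusted p = 0.778).

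The number of members called between vehicle and healthy livers depended on the libraries that entered the fit. Without I-BET151 mouse 3, which is in neither group, 7 members were called, where 22.3% of all genes were. Fitting only these groups also gave 7 (23.9% of all genes), and DESeq2 on all 12 mice gave 6 (9.95%). No member was called when healthy mouse 2, 3 or 4 or vehicle mouse 3 or 4 was left out, and 2 were without I-BET151 mouse 4. The first 5 of these fits called 3.17% to 3.94% of all genes, against 7.10% with every mouse, and the last 6.58%. Clec4f had log2 fold changes from 0.63 to 0.87 and Marco from 1.36 to 2.18 in the 12 fits.

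**Figure D2:**
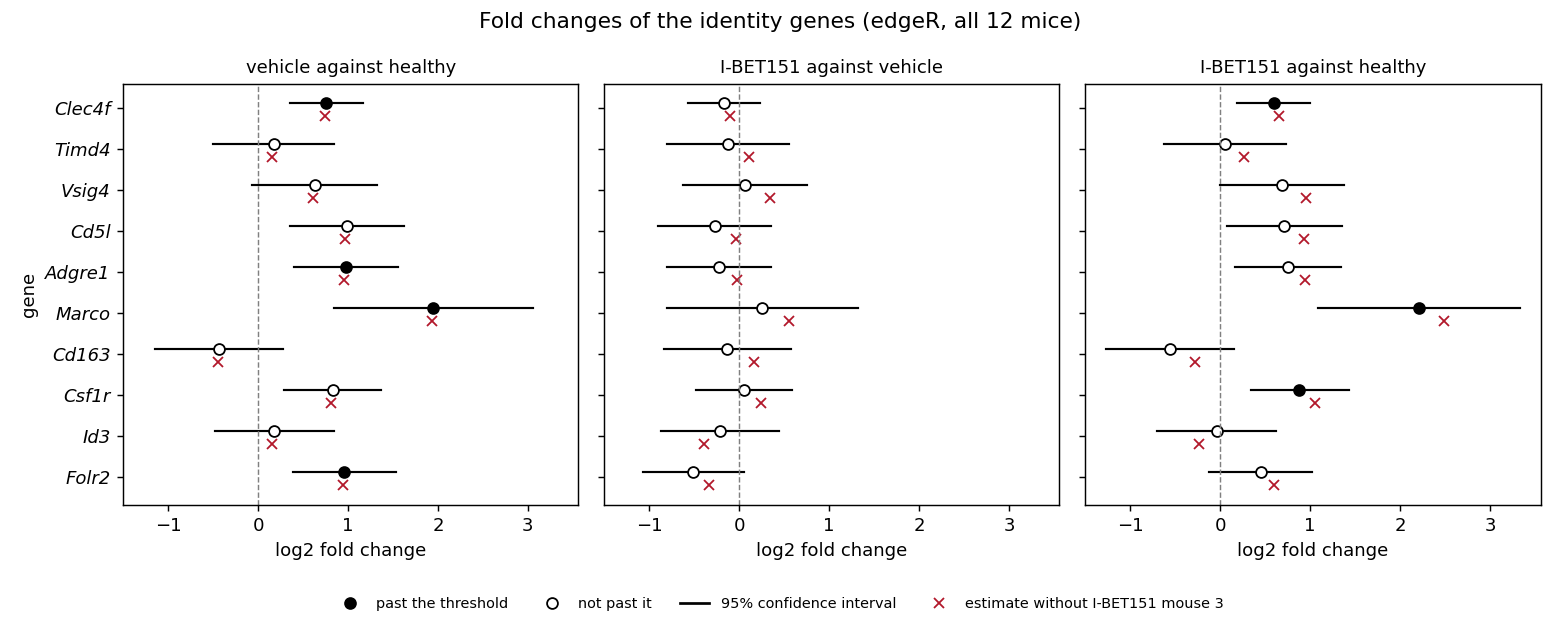
Log2 fold changes of the identity genes from edgeR in the 3 comparisons (circles, filled where past the threshold) with 95% confidence intervals (lines), and the estimates without I-BET151 mouse 3 (crosses). Circles are filled for 4 genes in vehicle against healthy, 0 in I-BET151 against vehicle and 3 in I-BET151 against healthy livers.

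I-BET151 against vehicle, the comparison that asks what the inhibitor did in diseased liver, gave no call among the members. With edgeR 0 of 10 passed an adjusted p of 0.1 and 0 had an unadjusted p under 0.05, and DESeq2 and the fit without I-BET151 mouse 3 also called 0. The share of all tested genes called was 0.351%. The groups overlapped for every member. Of all tested genes 2.41% were higher and 2.63% lower in every I-BET151 mouse, so a count of 0 among 10 genes does not set the members apart.

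The intervals left room for differences of some size in either direction. Folr2 had the lowest estimate, a log2 difference of -0.51 (95% confidence interval from -1.07 to 0.053, adjusted p = 0.623), and -0.34 without mouse 3. Marco had the highest, 0.26 (from -0.80 to 1.32, adjusted p = 0.937), and 0.56 without mouse 3. Clec4f had the narrowest interval, from -0.57 to 0.23 about -0.17 (adjusted p = 0.868). Timd4 and Cd163 changed sign when mouse 3 was left out, from -0.12 to 0.11 and from -0.13 to 0.17, and both intervals included 0.

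In I-BET151 against healthy livers, 3 members rose, where 15.1% of all tested genes differed and 1662 of 16823 were higher. This comparison shares its mice with the other comparisons and is not independent of them. Marco had a log2 fold change of 2.21 (standard error 0.52, adjusted p = 0.0137), Csf1r of 0.88 (standard error 0.25, adjusted p = 0.0317) and Clec4f of 0.60 (standard error 0.19, adjusted p = 0.0466). Marco and Clec4f were higher in every I-BET151 mouse than in any healthy mouse, a pattern that 10.9% of tested genes showed, while Csf1r in mouse 3 (63 CPM) lay inside the healthy range. Marco passed the threshold in all 12 fits that each left out a mouse.

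Without mouse 3, 6 members were called in that comparison, where 20.4% of all genes were. Vsig4 then had a log2 fold change of 0.95 (adjusted p = 0.00959), Cd5l of 0.93 (adjusted p = 0.0139) and Adgre1 of 0.94 (adjusted p = 0.0156). Only 1 member was called when healthy mouse 2, 3 or 4 or I-BET151 mouse 1 or 4 was left out, fits in which 7.49% to 12.5% of all genes were called. Timd4, Cd163, Id3 and Folr2 were not called with or without mouse 3.

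Some members did not keep their proportion to Clec4f. Of the other 9, 2 had a lower and 1 a higher ratio in every vehicle than in every healthy mouse. The ratios of the rest (Vsig4, Cd5l, Adgre1, Csf1r, Id3 and Folr2) overlapped between these groups. Clec4f, which is made by Kupffer cells in mice, was used as a common base within each library, and counts of the other 9 members were expressed per 100 Clec4f counts, a ratio that does not depend on library size. Timd4 had 8.05, 6.41, 7.3 and 7.04 in the healthy mice, 4.56, 4.84, 5.31 and 4.49 in the vehicle mice and 7.19, 4.81, 2.99 and 4.39 in the I-BET151 mice. Every vehicle mouse was below every healthy mouse, and the I-BET151 mice ran from below the vehicle range into the healthy range.

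Cd163 had 23.4, 34.6, 41.1 and 28.4 per 100 Clec4f counts in healthy, 16.7, 12.2, 13.1 and 13.8 in vehicle and 16.4, 16.3, 5.66 and 16.8 in I-BET151 mice. All 8 STAM mice were below all healthy mice. Marco had 16, 13.8, 12.2 and 10.9 in healthy, 22.9, 20, 48.7 and 23.6 in vehicle and 63.5, 29.6, 15.5 and 46.5 in I-BET151 mice, and was the 1 member of 9 that was higher in every vehicle mouse.

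Because Clec4f itself rose, a lower ratio to it was common: 45.1% of tested genes were lower per Clec4f count in every vehicle mouse, against 2 of 9 members, and 2.50% were higher in every vehicle mouse, against 1 of 9. The ratios of Timd4 and Cd163 therefore describe these genes relative to Clec4f and do not set them apart from other genes. The mean ratio of Csf1r was 81.4 ± 4.45 (SD, n = 4) in healthy and 85.1 ± 5.46 in vehicle livers, and that of Vsig4 was 31.1 ± 2.14 and 28.1 ± 2.92.

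**Figure D3:**
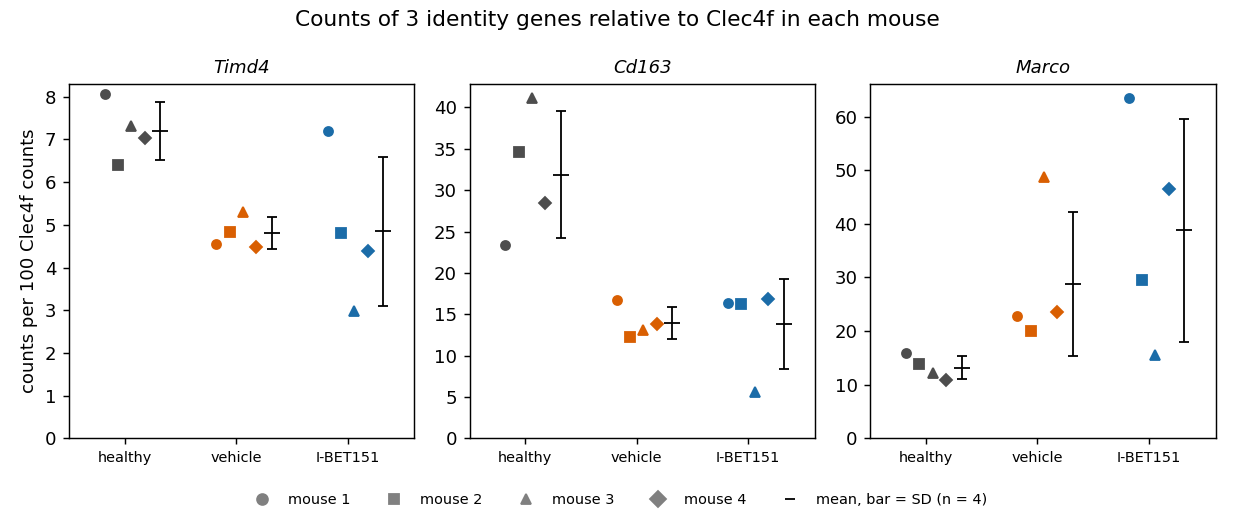
Counts of Timd4, Cd163 and Marco per 100 Clec4f counts in each mouse, with the mean and SD of 4 mice. Timd4 is at 6.41 to 8.05 in healthy and 4.49 to 5.31 in vehicle livers, Cd163 at 23.4 to 41.1 and 12.2 to 16.7, and Marco at 10.9 to 16 and 20 to 48.7.

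Within groups, 9 of the members went up and down together. Each mouse's log2 CPM was taken as a deviation from its group mean, and the median Pearson r of a member with the other 9 was between 0.78 for Cd163 and 0.95 for Cd5l over the 12 mice. The pair of Cd163 and Clec4f was the lowest among these 9 genes, at 0.56. Without I-BET151 mouse 3 the medians of the 9 genes were between 0.64 and 0.94. Vehicle mouse 3 was the highest of its group for 9 members, healthy mouse 1 for 8 and I-BET151 mouse 1 for 7. These values share libraries and scaling and are given as a description. They were not set beside all genes, so they do not show a trait particular to the members.

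Id3 went the other way. Its median r with the other members was -0.68 (from -0.77 to -0.58), and -0.63 without I-BET151 mouse 3. Vehicle mouse 3, the highest for the other 9 genes, was the lowest of its group for Id3 at 20.2 CPM, and I-BET151 mouse 3, the lowest for 8 genes, was the highest at 33.6 CPM.

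**Figure D4:**
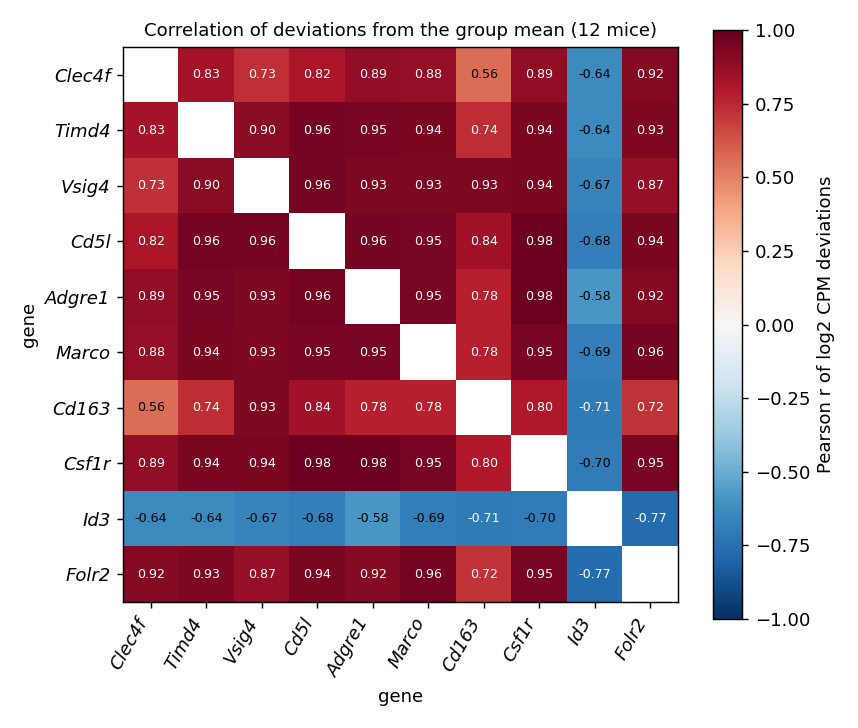
Pearson r between each pair of identity genes over 12 mice, computed on log2 CPM after subtracting each group's mean. Among the genes other than Id3 the values run from 0.56 to 0.98, and with Id3 from -0.77 to -0.58.

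Per kilobase of exon, the order of the members was alike at both ends in the 3 groups. Cd5l was highest, at 30.6 ± 4.5 CPM per kilobase in the healthy, 60.7 ± 19 in the vehicle and 50.2 ± 21.4 in the I-BET151 group (SD, n = 4), and it overlapped with Clec4f, the next, at 28.3 ± 4.41, 48.1 ± 10.9 and 42.9 ± 7.92. Clec4f was above Vsig4 in every mouse of each group. Timd4 was the lowest, at 2.34 ± 0.571, 2.65 ± 0.754 and 2.43 ± 1.19, and it overlapped with the gene above it, Adgre1 in healthy and Cd163 in both STAM groups. By its mean Marco held place 6 in healthy livers and place 4 in both STAM groups, where it overlapped with Csf1r. The place in vehicle livers rested on mouse 3, without which Marco had a mean of 12.6 CPM per kilobase and place 6.

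The genes outside the list whose log2 CPM over the 12 mice was most like the mean of the members were Ifi30 (Pearson r = 0.983), C1qb (0.982), C1qa (0.980), C1qc (0.976) and Cd44 (0.973), among 12958 genes. The C1q genes encode the recognition subunits of complement, and C1qa was at 33.7 ± 5.14 CPM in the healthy, 59 ± 18.3 in the vehicle and 50.6 ± 18.7 in the I-BET151 group. Most like Clec4f alone were Slc15a3 (0.981), Cfp (0.974) and Angpt2 (0.972). Most like Timd4 were Fam49b (0.930), Adgre4 (0.899) and Pitpna (0.894). These values include the difference between groups.

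Other macrophage genes were counted as lists beside the members. Of 15 further Kupffer cell genes, 3 rose in vehicle livers, namely Siglec1, Slc11a1 and Slc15a3, and the list's median log2 fold change was 0.30. Siglec1, the sialic acid receptor CD169, went from 10.4 ± 1.64 to 37.5 ± 12 CPM (log2 fold change 1.85, adjusted p = 7.2e-04). Of 12 Kupffer cell transcription factors 2 rose, Irf8 (log2 fold change 0.67, adjusted p = 0.0444) and Spi1, which encodes PU.1 (0.99, adjusted p = 0.05). Of 13 complement C1q and phagocytic receptor genes 5 rose, among them the lysosomal glycoprotein gene Cd68 (1.10, adjusted p = 0.00482) and Axl, a receptor tyrosine kinase for dying cells (0.88, adjusted p = 0.011). Without I-BET151 mouse 3, 4 of the further Kupffer cell genes were higher and 1 lower. Of the transcription factors 3 were then higher and 1 lower, and of the C1q and receptor genes 11 were higher. That fit called 22.3% of all genes in either direction, against 7.10% with every mouse.

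Markers of other macrophage states moved in the same comparison. Of 12 lipid-associated macrophage genes 6 rose, with Trem2 at 0.477 ± 0.226 CPM in healthy and 2.42 ± 0.876 in vehicle livers (log2 fold change 2.32, adjusted p = 0.00322) and Gpnmb at 0.648 ± 0.336 and 6.14 ± 4.16 (3.21, adjusted p = 0.001). Of 11 tested monocyte genes of 12 listed, 4 rose, namely Plac8, Ccl2, Cx3cr1 and Ly6c2. The median log2 fold change was 1.70 over the tested genes, with 10 of 11 above 0. Levels of these 4 genes were low. Plac8 was at 2.72 ± 0.439 CPM in healthy and 8.15 ± 3.22 in vehicle livers, and Ccl2 at 0.231 ± 0.166 and 1.17 ± 0.345. Cx3cr1 was at 0.754 ± 0.296 and 2.47 ± 1.01, and Ly6c2 at 0.317 ± 0.2 and 1.08 ± 0.228. Without I-BET151 mouse 3, 7 lipid-associated and 5 monocyte genes were higher, in a fit that called 22.3% of all genes in either direction. Several members, among them Adgre1, Csf1r and Marco, are also expressed by macrophages that derive from monocytes, and the part of such cells in the members' values was not tested.

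Of 12 niche ligands, Bmp2 fell by 0.71 on the log2 scale in vehicle livers (22.5 ± 6.77 to 13.8 ± 2.46 CPM, adjusted p = 0.0359) and none rose. Csf1 had a log2 difference of 0.64 (adjusted p = 0.176). Without I-BET151 mouse 3, where 22.3% of all genes were called, 1 ligand was higher and 1 lower. In I-BET151 against healthy livers, where 15.1% of all tested genes were called, Csf1 rose (log2 fold change 1.05, adjusted p = 0.0201). Bmp2 and Bmp6 fell there by 0.64 (adjusted p = 0.0338) and 0.90 (adjusted p = 0.0161) on the log2 scale. Of the 75 tested genes in the Kupffer cell, transcription factor, niche ligand, C1q, monocyte and lipid-associated lists, edgeR called 0 between I-BET151 and vehicle livers, 4 had an unadjusted p under 0.05, and DESeq2 called 0.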

How the data were processed

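RNA-seq of 12 livers was analysed. The authors aligned reads with STAR 2.5.1b to mm10 and deposited whole-number counts per gene, without normalization. The submitters' processing notes name HTSeq, as the methods do, whereas the file labels name featureCounts. The annotation release and strand setting are not given in the sources used here. Symbols, positions and exon lengths were taken from GENCODE M21 (GRCm38), which held 47310 of the 47729 identifiers.

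Counts were tested with edgeR 4.0.16 in R 4.3.3 (TMM, filterByExpr with a minimum count of 10, quasi-likelihood test, Benjamini-Hochberg adjustment over all 16823 genes tested) in a single fit of 12 mice. A call needed an adjusted p of at most 0.05 where healthy mice were the reference, and of at most 0.1 where vehicle mice were. CPM are counts scaled to a common library size with TMM factors, and log2 CPM used a prior count of 2. DESeq2 1.42.0, limma 3.58.1 and other settings were alternatives, 2 of them, both without I-BET151 mouse 3, chosen after seeing the data. Python 3.11.15, pandas 2.3.3, NumPy 2.4.6 and Matplotlib 3.10.9 were also used. The test was checked on simulated counts.

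The members and lists were chosen with earlier results of these data known. All members were named, and of each other list those past a threshold, or the 4 with the lowest adjusted p where more passed. Genes like the members needed a mean of at least 50 counts. The study dropped 1 sample of the I-BET151 group, which it does not name, over low gene counts, and all 4 were used here. Nothing says whether mice shared litters or cages. Within each group, counts of any 2 mice differed by more than sampling noise.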

Additional observations from a re-analysis of the deposited data

How the results depend on the processing

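For the members, the calls between I-BET151 and vehicle livers were 0 under every setting run. The share of all genes called was at most 8.32%, with DESeq2 without I-BET151 mouse 3. Between vehicle and healthy livers the 4 calls became 2 with RLE normalization, 7 with limma-voom sample weights, 7 with only the 2 groups, 7 with DESeq2 without I-BET151 mouse 3, and 0 with sequencing lane as a covariate, and leaving out a mouse gave 0 to 7. The shares of all genes called moved too, to 6.88% with RLE, 33.7% with voom, 23.9% with the 2 groups, 23.4% with DESeq2 without mouse 3 and 0.220% with lane, against 7.10%. Under lane the log2 fold changes were 0.68 for Clec4f, 0.95 for Adgre1, 1.63 for Marco and 0.85 for Folr2, with standard errors of 0.28, 0.47, 0.87 and 0.43. Between I-BET151 and healthy livers the 3 calls became 6 with total counts, 7 with voom weights, 0 with lane, 1 with only the 2 groups, 6 with those without mouse 3 and 6 with DESeq2 without mouse 3, and leaving out a mouse gave 1 to 6. The shares of all genes were then 20.7%, 29.0%, 0.505%, 7.88%, 16.1% and 21.3%, against 15.1%. Total counts moved the median of all genes in that comparison to 0.458. With the replicate block, 0 members were called in vehicle against healthy and 1 in I-BET151 against healthy livers, where 4.41% and 9.35% of all genes were, but same-numbered mice did not deviate together (mean r = -0.0697, -0.0623 and -0.146), so the number is not taken as a pairing. Only lane 2 held a mouse of each group. There 8 of 10 members were higher in the vehicle than in the healthy mouse, and 8 of 10 in the I-BET151 mouse. In lane 5, 9 of 10 were higher in the I-BET151 than in the healthy mouse. Between I-BET151 and vehicle mice, 4 were higher in the I-BET151 mouse in lane 2, 9 in lane 6 and 1 in lane 7. Each pair held a single mouse per group and was not set beside all genes. The part of lane in the members' values was not tested.

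Sign changes were in uncalled members, and their cause was not tested. In vehicle against healthy, lane gave Timd4 -0.028 and Cd163 0.21, and leaving out a mouse gave Timd4 from -0.026 to 0.35 and Id3 from -0.13 to 0.34. In I-BET151 against vehicle, voom gave Timd4 0.18, Cd5l 0.047, Adgre1 0.059 and Cd163 0.25, lane gave Vsig4 -0.089, and without mouse 3 the 2 groups gave Timd4 0.10 and Cd163 0.16 and DESeq2 gave 0.11 and 0.17. Leaving out a mouse there gave Timd4 from -0.49 to 0.11, Vsig4 from -0.14 to 0.34, Marco from -0.18 to 0.85, Cd163 from -0.32 to 0.17, Csf1r from -0.10 to 0.24 and Id3 from -0.39 to 0.093. In I-BET151 against healthy, lane gave Timd4 -0.20, total counts gave Id3 0.40 and at least 10 counts in every mouse gave Id3 0.0088, and leaving out a mouse gave Timd4 from -0.32 to 0.26 and Id3 from -0.23 to 0.12.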

Other observations

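Markers of other liver cells were also measured in vehicle against healthy livers. The median log2 fold change was -0.49 over 6 hepatocyte markers, 0.063 over 8 sinusoidal endothelial markers, 0.15 over 6 stellate cell markers, 0.71 over 6 dendritic cell markers, 0.11 over 4 B cell markers, 0.27 over 4 cholangiocyte markers and 0.21 over 4 peritoneal and capsular macrophage markers, and no gene of these lists passed the threshold in edgeR. Without I-BET151 mouse 3, 3 hepatocyte markers and 1 stellate cell marker were lower, and 1 endothelial, 1 dendritic and 1 cholangiocyte marker were higher. That fit called 22.3% of all genes, against 7.10% with every mouse. Among 6 T cell markers Cd8a rose (log2 fold change 2.31, adjusted p = 0.00482), and among 4 tested neutrophil markers Csf3r rose (1.01, adjusted p = 0.0448). Without I-BET151 mouse 3, 2 T cell and 3 neutrophil markers were higher, again beside 22.3% of all genes called.

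In I-BET151 against vehicle livers, Cd4 was the 1 gene of the lists above that was called. It encodes the co-receptor of helper T cells and fell by 1.77 on the log2 scale (standard error 0.32, adjusted p = 0.052). In I-BET151 against healthy livers 15.1% of all tested genes were called. Prg4, a lubricin gene listed with the capsular macrophage markers, had a log2 fold change of 2.43 there (adjusted p = 0.0174). It had 25.7 to 35.4 CPM in healthy and 26.7 to 393 in I-BET151 mice, which overlapped. Cd207 fell by 1.49 on the log2 scale in the same comparison (adjusted p = 0.0104).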
